A study of Mus musculus with 10 samples.

Results

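The Schlafen genes are a small mouse gene family named after the German word for sleeping, and 7 of them, Slfn1, Slfn2, Slfn3, Slfn4, Slfn5, Slfn8, and Slfn9, were followed here through murine keratinocytes and CD8+ T cells. The members were taken by their family name, with earlier results of these data known, and all 7 were found among the 25814 genes of each of the 10 deposited tables. Of the other Schlafen-named genes, Slfn14 had 10 exon reads in 1 library of keratinocytes alone and 0 in the other 9 libraries, Slfnl1 had 0 in all 10, and Slfn10-ps was not analysed here.

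Schlafen proteins share an N-terminal core that binds and, in several members, cleaves RNA, and the long members carry a helicase-like domain in addition. Loss of Slfn2 function in mice makes resting T cells leave quiescence and die upon activation, Slfn1 was named for its ability to arrest thymocyte growth, and transcripts of several members rise in response to type I interferons. The family therefore belongs to both T-cell quiescence and the interferon response.

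Each of 5 groups held 2 RNA libraries. Primary keratinocytes, taken here as those from tails of adult mice, were grown alone or together with CD8+ T cells, and the T cells were washed off before lysis. The paper also prepared keratinocytes from newborn mice and does not state which of the 2 sources was sequenced. Splenic CD8+ T cells, selected with CD8 microbeads, were pre-activated with αCD3/CD28 Abs during 1 d and then either lysed (activated T cells), kept 1 d more in keratinocyte medium, or kept 1 d more on keratinocytes. The medium of both later T-cell groups is named here as in the labels, whereas the paper describes a mix that was mostly serum-free keratinocyte medium with some X-vivo medium. The paper gives C57/B6 mice of wild type for such cultures. All T-cell groups therefore carry the αCD3/CD28 activation and no group of resting T cells was analysed. The labels give 1 d for the co-culture of the T cells, whereas the design text deposited with the series gives an hour. The number of animals per library is not given in the sources used here, so p-values measure the spread between these libraries, which may be technical.

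Depth ranged from 12864931 to 18019609 exon reads. The numbers that the deposited files carry fall into a first set (1 to 8) and a second set (12 to 16), each with 1 library of every group, and for both keratinocyte groups and activated T cells these sets coincide with replicates 1 and 2 of the labels. The difference between the sets was correlated across 13394 genes in all 10 pairs of groups (Pearson r 0.124 to 0.496, a description across genes that share libraries and exon lengths). Genes with under 2 kb of exons were higher in the second set by a median of 0.17 to 0.39 (log2), and genes with over 5 kb were lower by 0.20 to 0.51. Ratios within each set are therefore given beside the fits. Keratinocyte libraries held RNA of all 12 T-cell markers examined (Cd3d, Cd3e, Cd3g, Cd247, Cd2, Cd5, Cd6, Cd28, Lck, Lat, Zap70, Thy1), with a summed level of 153 and 595 RPKM alone and 192 and 1043 RPKM in co-culture, beside 1740 to 2728 RPKM in the 6 T-cell libraries. The CD8 lineage genes Cd8a and Cd8b1 summed to only 0.224 to 3.16 RPKM in the 4 keratinocyte libraries and to 251 to 1096 RPKM in T cells, whereas Cd4 reached 11.4 to 84.5 RPKM in keratinocytes and 16.8 to 102 RPKM in T cells. Of 12 keratinocyte markers the summed level was 14509 to 19027 RPKM in keratinocytes and 8.71 to 104 RPKM in T cells. RPKM are reads scaled to the length of the exons and to the number of mapped reads.

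In the deposited GRCm38 coordinates the 7 members were the only genes of the tables within 263.8 kb of chromosome 11 (82951349 to 83215154), in the order Slfn5, Slfn9, Slfn8, Slfn2, Slfn1, Slfn4, Slfn3, as the map of the cluster shows. Only Slfn8 and Slfn9 lie on the minus strand. By the GENCODE vM21 models, Slfn1 and Slfn2 have short coding regions of 1014 and 1137 bases on 2 exons each, Slfn3 and Slfn4 intermediate ones of 1923 and 1809 bases, and Slfn5, Slfn8, and Slfn9 long ones of 2655, 2733, and 2733 bases.

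**Figure D1:**
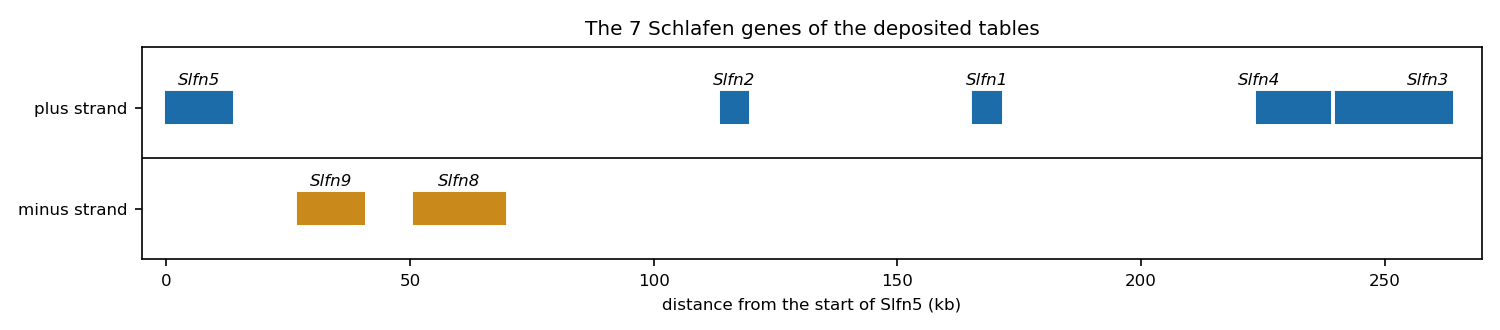
Position of the 7 Schlafen genes along chromosome 11, in kb from the start of Slfn5, with plus-strand genes drawn above the line and minus-strand genes below it. Each box spans a gene from its first to its last base, and the 7 boxes lie within 263.8 kb.

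Motifs were searched on both strands in RefSeq windows of 300 bases (250 before and 50 after the first start site, GRCm38.p6). The letters ACTTCCTGG, an ETS-type motif, lay in the windows of Slfn1, Slfn2, Slfn3, and Slfn4, and in 0.843% of the 32851 windows of all genes. This motif was chosen after the windows had been seen, so its presence in them was known beforehand and the share is no test. The core of the interferon-stimulated response element, searched as GAAA, any 2 bases, and GAAA again, lay in the windows of Slfn5, Slfn8, and Slfn9, and in 3.44% of all windows. Of the windows with this core, those of Slfn8 and Slfn9 were 80.5% identical, and the Slfn5 match borders on a run of A. The RefSeq window of Slfn5 (82951852 to 82952151) lies inside the gene as deposited, which begins at base 82951349. Its match is therefore before the RefSeq start site but not before the deposited one. The gamma-activated sequence TTCNNNGAA was in 0 of the 7 windows and in 8.30% of all. The stretches with the first 2 motifs are printed to show which members share which letters, 5′ to 3′ on the strand of the gene, with the match in capitals. In Slfn8 and Slfn9 the match reads this way on the opposite strand.

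Slfn1 (chr11:83116726-83116774, + strand): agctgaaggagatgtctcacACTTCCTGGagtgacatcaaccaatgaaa
Slfn2 (chr11:83065037-83065085, + strand): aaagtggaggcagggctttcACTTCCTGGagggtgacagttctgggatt
Slfn3 (chr11:83191268-83191316, + strand): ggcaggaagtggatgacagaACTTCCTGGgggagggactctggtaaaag
Slfn4 (chr11:83175093-83175141, + strand): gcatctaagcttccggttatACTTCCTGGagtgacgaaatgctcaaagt
Slfn5 (chr11:82951927-82951976, + strand): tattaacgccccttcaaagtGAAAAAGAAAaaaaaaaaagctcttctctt
Slfn8 (chr11:83020829-83020878, - strand): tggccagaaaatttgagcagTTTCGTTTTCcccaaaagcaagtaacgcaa
Slfn9 (chr11:82991846-82991895, - strand): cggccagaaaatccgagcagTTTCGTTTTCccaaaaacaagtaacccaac

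The ETS-type match ended between base -66 (Slfn1) and base -34 (Slfn3) from the start site in the 4 short and intermediate members. The whole windows of Slfn1 and Slfn2 are given as well, since these 2 genes held most Schlafen RNA and differed in their course in T cells. Aligned, these windows were 46.1% identical, and the coding regions of Slfn1 and Slfn2 were 63.1% identical.

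Slfn1 (chr11:83116570-83116869, + strand): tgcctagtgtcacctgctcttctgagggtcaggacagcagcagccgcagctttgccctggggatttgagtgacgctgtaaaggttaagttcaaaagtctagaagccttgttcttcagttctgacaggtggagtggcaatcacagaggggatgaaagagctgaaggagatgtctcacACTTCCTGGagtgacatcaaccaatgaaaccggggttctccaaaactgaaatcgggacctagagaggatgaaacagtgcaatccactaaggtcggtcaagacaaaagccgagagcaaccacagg
Slfn2 (chr11:83064862-83065161, + strand): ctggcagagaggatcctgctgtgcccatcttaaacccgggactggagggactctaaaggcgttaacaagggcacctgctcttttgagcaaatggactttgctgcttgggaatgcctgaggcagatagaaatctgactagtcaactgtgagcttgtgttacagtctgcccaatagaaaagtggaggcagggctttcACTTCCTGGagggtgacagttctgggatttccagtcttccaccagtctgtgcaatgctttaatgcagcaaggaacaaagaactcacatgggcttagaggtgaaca

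Some members are so alike that reads could be placed on the wrong copy. The coding regions of Slfn8 and Slfn9 were 92.7% identical and their promoter windows 80.5%, and Slfn3 and Slfn4 were 85.3% identical in their coding regions. Of all stretches of 59 bases, the read length, 11.1% in Slfn8 transcripts and 8.65% in Slfn9 transcripts also occurred in another Schlafen gene, against 0.111% in Slfn1, 3.18% in Slfn2, 4.40% in Slfn3, 5.05% in Slfn4, and 0 in Slfn5. Most of these stretches were shared with the Slfn10-ps transcripts of the annotation, 330 of 467 in Slfn8 and 379 of 516 in Slfn9. The share of exon reads that mapped uniquely over the 10 libraries was 99.9% for Slfn1, 96.1% for Slfn2, 96.0% for Slfn3, 99.2% for Slfn5, 93.0% for Slfn8, and 92.6% for Slfn9. For Slfn4 all 35 exon reads mapped uniquely. Values of Slfn8, Slfn9, Slfn3, Slfn4, and Slfn2 are uncertain to the extent of these shares. The strand setting of the counting is not given in the sources used here, so reads of the antisense genes annotated at Slfn2 and Slfn5 cannot be told apart from the members' own.

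Slfn2, the member needed for T-cell quiescence, was the most abundant Schlafen RNA in all 10 libraries. It held 69.2% to 90.7% of the summed RPKM of the 7 genes. Its level was 20.8 and 72.6 RPKM in keratinocytes alone, 49.98 and 124 RPKM in co-cultured keratinocytes, 269 and 323 RPKM in activated T cells, 249 and 373 RPKM in T cells in keratinocyte medium, and 226 and 339 RPKM in T cells from the co-culture. All 6 T-cell libraries were above all 4 keratinocyte libraries, and the 3 T-cell groups overlapped each other. The share of all genes that separate the cell types in this way is not given here. In activated T cells against keratinocytes alone, 35.5% of all genes were called in either direction (edgeR), so a difference between the cell types is common. Within each group the library of the second set was the higher one.

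Slfn1, the growth-arrest gene, came second and had a different course. Its level was 2.68 and 13.5 RPKM in keratinocytes alone, 3.04 and 19.3 RPKM in co-cultured keratinocytes, 16.02 and 34.0 RPKM in activated T cells, 98.6 and 99.9 RPKM in T cells in keratinocyte medium, and 77.8 and 65.0 RPKM in T cells from the co-culture. The groups of T cells did not overlap: the level was lowest in activated T cells, intermediate in co-cultured T cells, and highest in T cells in keratinocyte medium. With 2 libraries a group this order has little weight, as an exact two-sided test of 2 against 2 cannot go below p = 0.333. The share of all genes without such overlap is not given here, and the step between both later groups was not called. Activated T cells overlapped with co-cultured keratinocytes. Per length, the ratio of Slfn1 to Slfn2 was 0.0595 and 0.105 in activated T cells and 0.192 to 0.397 in both later T-cell groups.

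Of the intermediate members, Slfn3 was a low T-cell RNA and Slfn4 was close to absent. Slfn3 reached 5.01 and 1.79 RPKM in activated T cells, 2.71 and 3.89 RPKM in keratinocyte medium, and 3.84 and 1.89 RPKM after co-culture. In keratinocytes it had 0 reads in both libraries of the first set, which allows up to 3 reads each, and 12 reads in each library of the second set. Slfn4, best known from macrophages and other myeloid cells, had 0 reads in all 4 keratinocyte libraries, again allowing up to 3 reads each. In the 6 T-cell libraries it had 3 to 12 reads, 0.0439 to 0.210 RPKM, and did not pass the filter on low counts. Where it was fitted, with no filter or with 1 library left out, it was not called (adjusted p 0.0701 to 1, edgeR). The 9 myeloid markers found in the tables, among them Lyz2, Cd68, and also S100a8 and S100a9, which keratinocytes express as well, summed to 26.1 to 300.1 RPKM in the T-cell libraries, and their part in the Slfn4 reads was not tested.

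The 3 long members were low in both cell types. Slfn5, a nuclear member studied mainly as an interferon-regulated gene, ranged from 0.375 RPKM in a library of keratinocytes alone to 2.48 RPKM in one of co-cultured keratinocytes, and T cells (0.945 to 2.45 RPKM) fell inside this range. Slfn8 ranged from 0.232 to 2.83 RPKM in keratinocytes and from 1.57 to 6.31 RPKM in T cells. Slfn9 overlapped between the cell types. Its levels were 1.68 and 0.866 RPKM in keratinocytes alone, 1.43 and 0.244 RPKM in co-cultured keratinocytes, 2.24 and 1.14 RPKM in activated T cells, 0.966 and 0.185 RPKM in keratinocyte medium, and 0.561 and 0.308 RPKM in co-cultured T cells. In every group the library of the first set had more Slfn9, and Slfn9 has the second longest exons of the 7 genes, 5965 bases after 6042 of Slfn5. Slfn5 did not share this course. It was higher in the second set in both keratinocyte groups and in activated T cells, and lower in both later T-cell groups. The part of exon length in these values was not tested. For Slfn5, Slfn8, and Slfn9 all neighbours in the order of group levels overlapped.

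**Figure D2:**
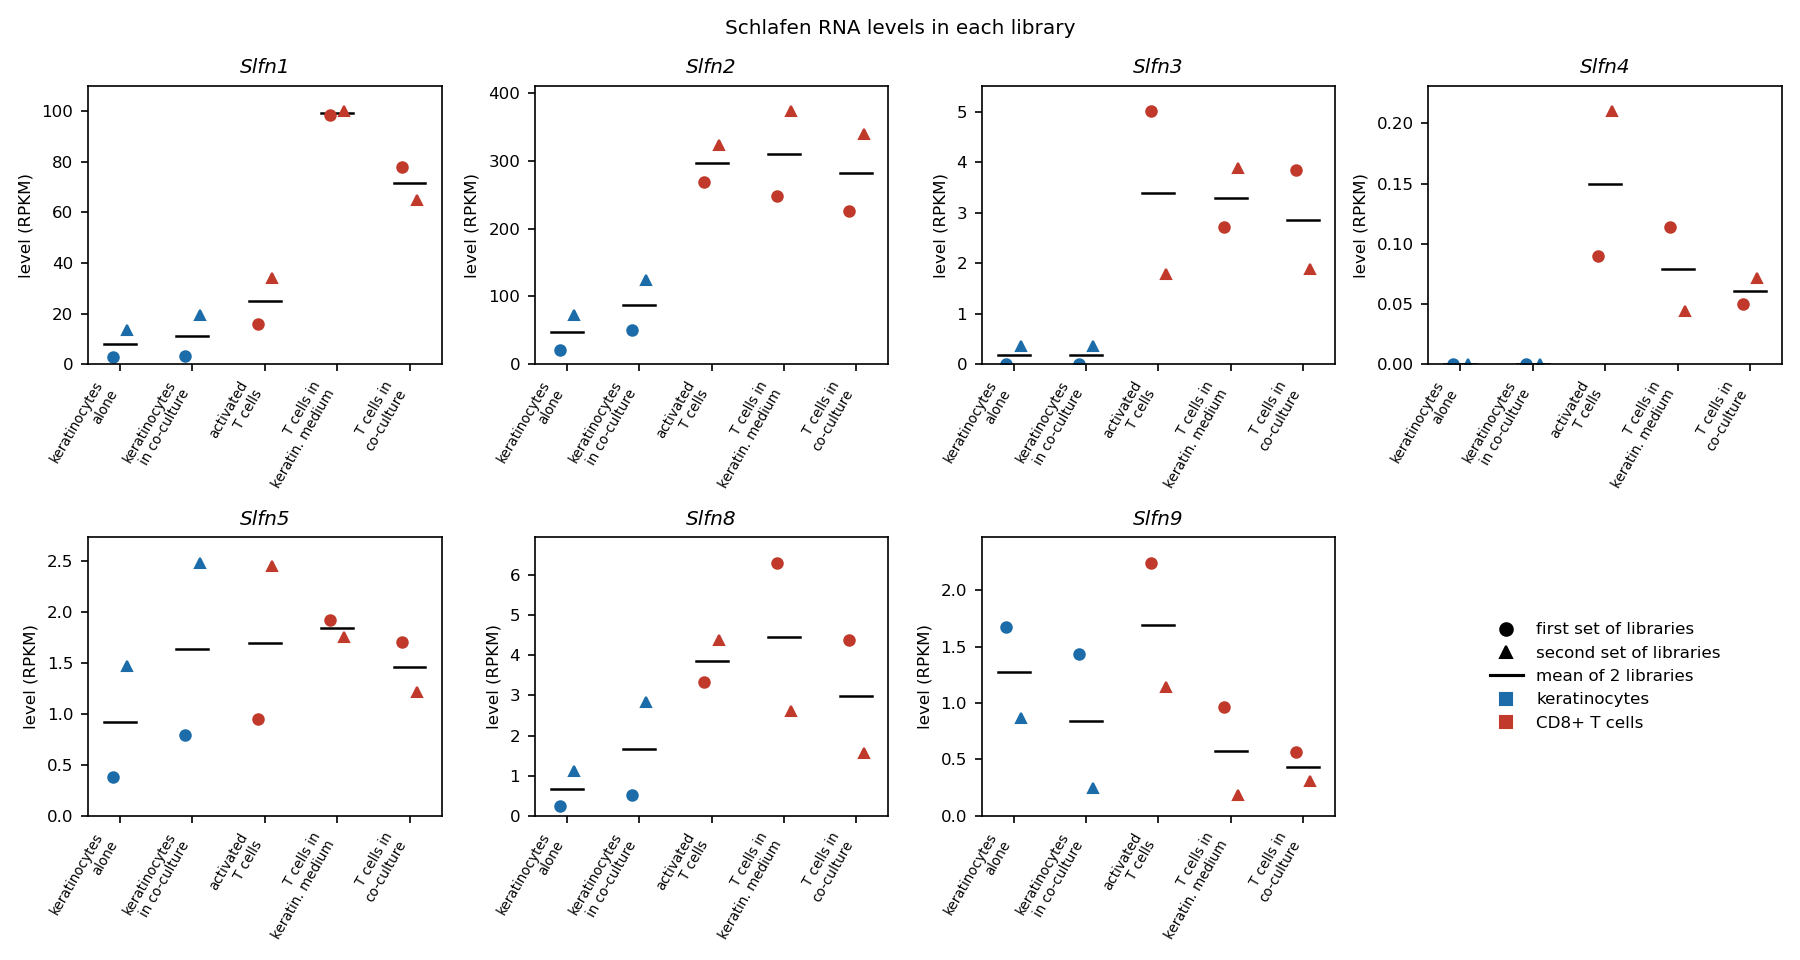
RPKM of each Schlafen gene (linear axes from 0, one scale per gene) in the 5 groups, with circles for the first set of libraries, triangles for the second set, and a line at the mean of the 2 libraries. Slfn1 rises from 16.02 and 34.0 RPKM in activated T cells to 98.6 and 99.9 RPKM in keratinocyte medium, while Slfn2 stays between 226 and 373 RPKM in all 6 T-cell libraries.

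The first question on T cells was how the family differed once activated cells had been kept 1 d more in keratinocyte medium. These groups differ in medium, in time of culture, and possibly in contact with the αCD3/CD28 Abs, whose removal the labels do not state. These differences cannot be told apart here. Slfn1 was called as higher and no other member was called. The log2 fold change of Slfn1 was 2.12 (SE 0.42, adjusted p = 0.0295, edgeR's quasi-likelihood test with Benjamini-Hochberg adjustment over all genes), and it was higher in both sets, 6.16-fold in the first and 2.94-fold in the second. This was 1 of 6 members tested, where 6.54% of all 11863 genes tested were called in either direction. Slfn2 differed by 0.23 (SE 0.39), Slfn3 by 0.14 (SE 0.64), Slfn5 by 0.24 (SE 0.55), and Slfn8 by 0.32 (SE 0.57), all within their errors, and each of these 4 was higher in one set and lower in the other. Slfn9 had a log2 fold change of -1.44 (SE 0.80, adjusted p = 0.312, edgeR) and was lower in both sets, at 0.430 and 0.162 of its level in activated T cells. The median over the 6 members was 0.23 and over all genes -0.01. The 12 T-cell markers together were 1.57-fold and 1.19-fold higher in the same libraries, and Cd8a (1.89-fold and 1.99-fold) and Cd8b1 (2.75-fold and 2.69-fold) were higher still, though not called (adjusted p = 0.0981 and 0.0834, edgeR). In the second set Cd8b1 was thus close to the 2.94-fold of Slfn1. Single markers varied, with none called. Cd3d was 3.11-fold and 1.85-fold and Cd3g 3.40-fold and 1.49-fold higher, whereas Cd5 and Cd6 were lower in both sets. Cd4 was 4.00-fold higher in the first set and at 0.742 of its level in the second. The libraries of activated T cells thus differed in Cd4 (16.8 and 102 RPKM), and both comparisons with activated T cells rest on them. Summed B-cell markers were at 30.1 and 32.7 RPKM in activated T cells and between 44.97 and 92.9 RPKM in medium. The part of these values in the rise of Slfn1 was not tested. Slfn1 as a share of the summed markers was 0.921% and 1.53% in activated T cells and 3.61% and 3.77% in keratinocyte medium.

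The call of Slfn1 in keratinocyte medium was close to the threshold. With a term for the 2 sets of libraries it was 2.19 (SE 0.31, adjusted p = 0.00107, edgeR), where 26.0% of all genes were called. Without replicate 1 of the activated T cells the log2 fold change was 1.66 (adjusted p = 0.108, edgeR), without replicate 1 of the T cells in keratinocyte medium 2.23 (adjusted p = 0.0816, edgeR), and without replicate 2 of these 2.04 (adjusted p = 0.117, edgeR). In a fit of all 10 libraries, whose common spread includes that of the keratinocytes, it was 2.17 (SE 0.94, adjusted p = 0.217, edgeR).

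T cells kept on keratinocytes were next compared with the same activated T cells, which this comparison shares with the one above. The presence of keratinocytes is added here to the differences named there, and these cannot be told apart either. Slfn1 again rose, by a log2 fold change of 1.68 (SE 0.41, adjusted p = 0.0410, edgeR), 4.86-fold in the first set and 1.91-fold in the second. It was 1 of 6 members called, beside 10.3% of all genes. Slfn9 was at 0.250 and 0.270 of its level in activated T cells, with a log2 fold change of -1.77 (SE 0.81, adjusted p = 0.195, edgeR). The other 4 members had log2 fold changes from -0.23 for Slfn8 (SE 0.57) to 0.14 for Slfn2 (SE 0.39). Summed T-cell markers were at 1.51 and 0.959 of their level in activated T cells, whereas Cd8a was 1.77-fold and 1.90-fold and Cd8b1 2.46-fold and 2.32-fold higher, neither of them called (adjusted p = 0.0902 and 0.0877, edgeR). In the second set both CD8 genes were close to or above the 1.91-fold of Slfn1. Keratinocyte markers reached 58.1 and 104 RPKM in these T cells, against 21.8 and 23.3 RPKM in activated T cells. Their part in the values was not tested. With a term for the sets Slfn1 was at 1.77 (SE 0.31, adjusted p = 0.00224, edgeR, with 30.9% of all genes called). Without replicate 1 of the activated T cells it was 1.22 (adjusted p = 0.154, edgeR), without replicate 2 of the T cells in keratinocyte medium 1.68 (adjusted p = 0.0586, edgeR), and without replicate 1 or 2 of the co-cultured T cells 1.65 (adjusted p = 0.0628, edgeR) or 1.71 (adjusted p = 0.0884, edgeR). With plain library sizes it was 1.53 (adjusted p = 0.0567, edgeR), and with all 10 libraries in the fit 1.74 (adjusted p = 0.268, edgeR).

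T cells from the co-culture and T cells in keratinocyte medium differ by the presence of keratinocytes. No member was called between them. All 6 members tested had a negative log2 fold change, from -0.08 for Slfn2 (SE 0.39) to -0.54 for Slfn8 (SE 0.57), with a median of -0.31 against -0.01 over all genes, and 0.261% of all genes were called. Slfn1 was lower in co-culture in both sets, 0.789 and 0.651 of its level in medium alone, with a log2 fold change of -0.44 (SE 0.40, adjusted p = 1, edgeR). The T-cell markers were at 0.966 and 0.806 in the same pairs of libraries. Keratinocyte markers summed to 8.71 to 14.2 RPKM in medium and 58.1 to 104 RPKM in co-culture, with Krt14 and Perp called as higher, and B-cell markers to 44.97 to 92.9 RPKM and 16.7 to 27.4 RPKM, with 0 of 6 called and all 6 negative (median log2 fold change -2.05). The part of these markers in the values was not tested. At an unadjusted p under 0.05 edgeR also had 0 of the 6 members, and DESeq2 and limma called 0.

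**Figure D3:**
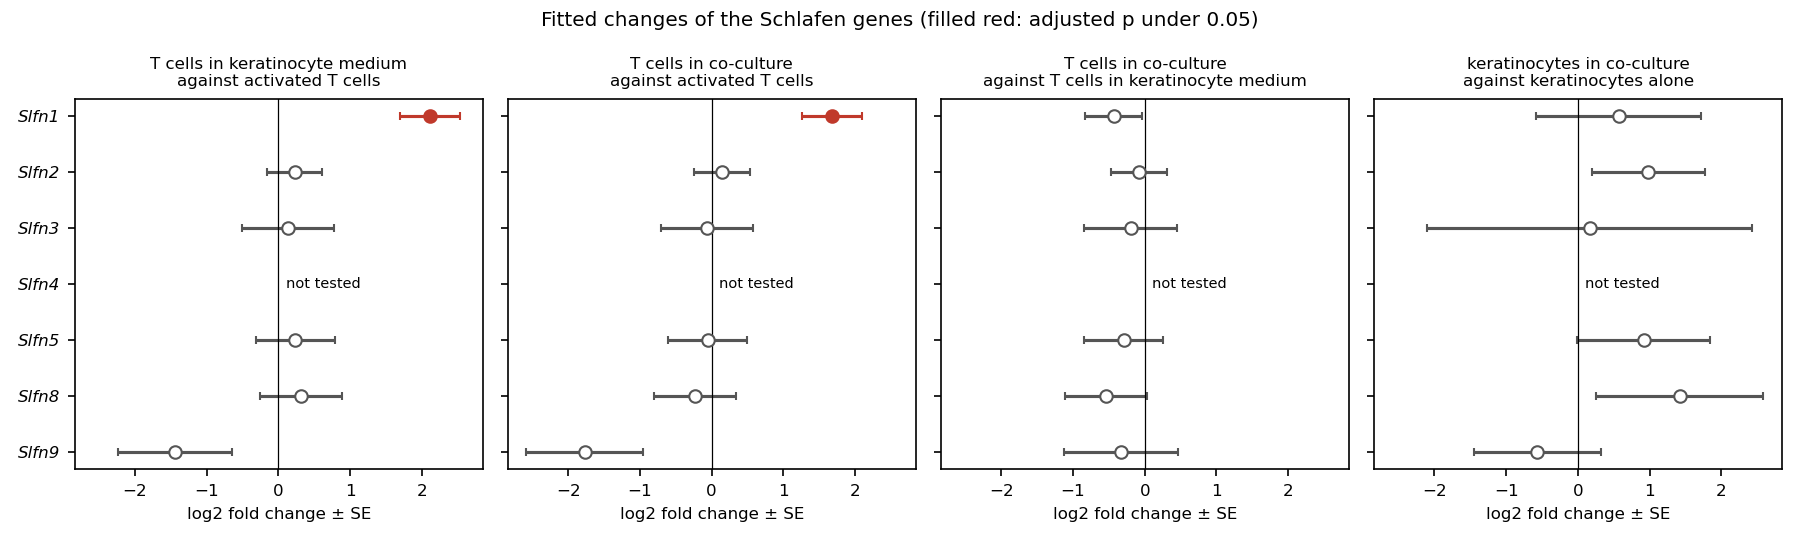
Log2 fold changes of the Schlafen genes (points) with their standard errors (bars) in the 3 comparisons of T cells and in that of keratinocytes, from edgeR. The 2 filled red points are Slfn1 in T cells in keratinocyte medium (2.12) and in co-culture (1.68), each against activated T cells.

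In keratinocytes the question was whether the family followed the interferon response to co-culture. None of the 6 members tested passed the threshold, nor did any of the 12515 genes (0% called, 901 genes at an unadjusted p under 0.05 in edgeR). DESeq2 and limma also called 0 of the 6 members, and 0 had an unadjusted p under 0.05 in edgeR, while DESeq2 called 88 of all genes as higher and 98 as lower. The log2 fold changes were 1.42 for Slfn8 (SE 1.17), 0.98 for Slfn2 (SE 0.79), 0.92 for Slfn5 (SE 0.93), 0.57 for Slfn1 (SE 1.15), 0.17 for Slfn3 (SE 2.27), and -0.57 for Slfn9 (SE 0.89). Their median was 0.74, against 0.02 over all genes.

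Within the replicate numbers the ratios were more even than these errors, as the plot of keratinocyte ratios shows. Slfn2 was 2.41-fold and 1.71-fold higher in co-culture, Slfn5 2.12-fold and 1.69-fold, and Slfn8 2.22-fold and 2.56-fold. Slfn1 was 1.13-fold and 1.43-fold higher, and Slfn9 was at 0.854 and 0.282 of its level in keratinocytes alone. With the replicate number as a block the log2 fold change of Slfn2 was 1.09 (SE 0.26, adjusted p = 0.153, edgeR), that of Slfn8 1.34 (SE 0.46, adjusted p = 0.196, edgeR), and that of Slfn5 0.98 (SE 0.36, adjusted p = 0.205, edgeR). Thus 3 members had an unadjusted p under 0.05 with the block and 0 passed adjustment, where 21.96% and 0.0160% of all genes did. Slfn2 is among the genes that the authors list for the response to bacteria in co-cultured keratinocytes, a list chosen on these samples.

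**Figure D4:**
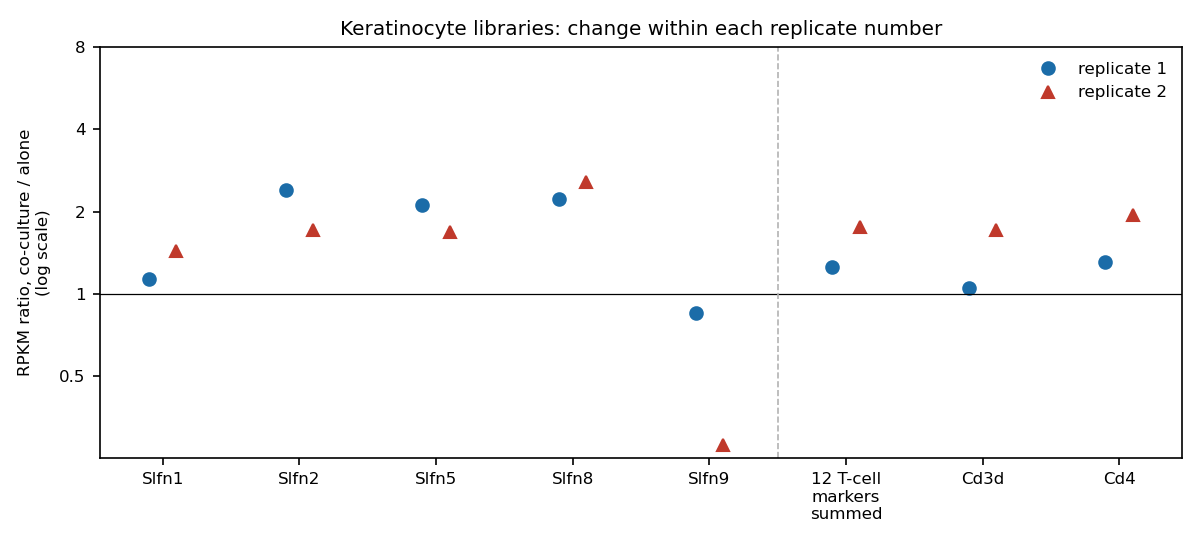
Ratio of RPKM in co-cultured keratinocytes to keratinocytes alone (log axis) within replicate 1 (circles) and replicate 2 (triangles) for 5 Schlafen genes, left of the dashed line, and for T-cell markers, right of it. Slfn2, Slfn5, and Slfn8 lie between 1.69 and 2.56, beside 1.26 and 1.75 for the summed T-cell markers.

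T-cell marker RNA was also higher in co-culture. The summed markers, Slfn1, and Slfn8 rose more in replicate 2, Slfn2 and Slfn5 rose more in replicate 1, and Slfn9 was lower in both. The 12 T-cell markers summed were 1.26-fold and 1.75-fold higher in the same pairs and Cd4 1.31-fold and 1.94-fold. Of the lineage genes of the added cells, Cd8a was 4.46-fold and 1.94-fold higher, and Cd8b1 had 3 and 22 reads alone and 18 and 49 reads in co-culture. None of these genes was called, and keratinocytes alone, which had met no added T cells, held 153 and 595 RPKM of these markers. Slfn1 amounted to 1.76% and 2.27% of the summed markers in keratinocytes alone and to 1.58% and 1.85% in co-culture. For Slfn2 this share was 13.6% and 12.2% alone and 26.0% and 11.9% in co-culture, and it was 8.57% to 15.9% in the T-cell libraries. For Slfn2, only replicate 1 of the co-cultured keratinocytes lay above the range of the T cells. The share of Slfn5 was 0.238% to 0.414% in keratinocyte libraries, all above the 0.0543% to 0.1097% of T-cell libraries. Slfn9 reached 1.098% in replicate 1 of keratinocytes alone and at most 0.129% in T cells, but its ranges overlapped. Those of Slfn8 overlapped as well (0.152% to 0.271% and 0.0735% to 0.231%). Slfn3 was lower in keratinocytes, with at most 0.0597%, beside at least 0.08003% in T cells. The part of T-cell RNA in the keratinocyte values was not tested. In these bulk samples fewer cells of a type and less RNA per cell cannot be told apart.

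**Figure D5:**
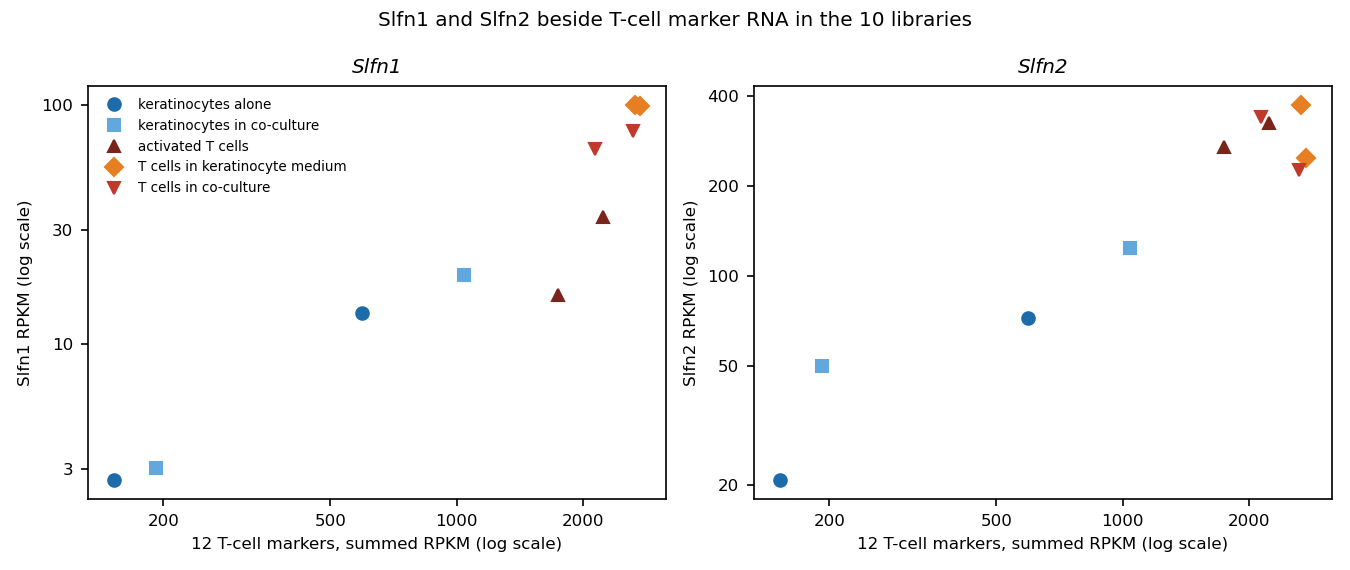
RPKM of Slfn1 (left) and Slfn2 (right) against the summed RPKM of 12 T-cell markers in each of the 10 libraries, both axes on log scales, with one symbol per group. Keratinocyte libraries with more marker RNA have more of both Schlafen RNAs, and the 6 T-cell libraries span 16.02 to 99.9 RPKM of Slfn1 over a marker range of 1740 to 2728 RPKM.

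Both cell types were also compared directly. In activated T cells against keratinocytes alone, all 6 members tested had a positive log2 fold change with a median of 1.94, against -0.14 over all genes, and 1 of them, Slfn2, was called with 2.51 (SE 0.71, adjusted p = 0.0239, edgeR). The share of all genes called was 35.5%. Slfn3 had 4.06 (SE 1.60, adjusted p = 0.0771, edgeR) and Slfn8 2.38 (SE 0.98, adjusted p = 0.0896, edgeR). With a term for the sets, Slfn2 (2.76, SE 0.37, adjusted p = 0.000651, edgeR) and Slfn3 (4.50, SE 1.62, adjusted p = 0.0489, edgeR) were called, beside 47.2% of all genes. DESeq2 called 3 members, Slfn2, Slfn3, and Slfn8. Leaving out 1 of the 10 libraries gave 0 to 3 called members, and Slfn2 then ranged from 1.94 to 3.81 with adjusted p-values up to 0.104 (edgeR).

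In T cells against keratinocytes of the co-culture, 0 of 6 members were called by edgeR, beside 23.7% of all genes, and 3 had an unadjusted p under 0.05, beside 37.9% of all genes. DESeq2 called 3 and limma 2. Slfn3 had a log2 fold change of 3.88 (SE 1.59, adjusted p = 0.109, edgeR), Slfn1 2.67 (SE 0.96, adjusted p = 0.0736, edgeR), and Slfn2 1.76 (SE 0.69, adjusted p = 0.0968, edgeR). With a term for the sets Slfn1 (3.20, SE 0.70, adjusted p = 0.00918, edgeR) and Slfn2 (1.87, SE 0.35, adjusted p = 0.00472, edgeR) were called, beside 35.3% of all genes. The CD8 lineage genes had a median log2 fold change of 8.38 in the same comparison and the T-cell markers 1.99.

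Whether co-culture acted differently on T cells and keratinocytes was tested as the difference between both effects, with T cells in keratinocyte medium as the control of the T cells. For 5 of 6 members the difference was negative, with the co-culture value lower in T cells than in keratinocytes relative to the controls, at -1.99 for Slfn8 (SE 1.47), -1.22 for Slfn5 (SE 1.12), -1.07 for Slfn2 (SE 1.02), -1.02 for Slfn1 (SE 1.34), and -0.39 for Slfn3 (SE 2.24), and it was 0.28 for Slfn9 (SE 1.38). None was called or had an unadjusted p under 0.05 in edgeR, DESeq2 and limma called 0, and 0.576% of all genes were called by edgeR.

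The family was set beside 3 lists of genes that hold none of its members. Of the T-cell quiescence list, 3 of 20 genes tested rose in T cells in keratinocyte medium and 0 fell, with a median log2 fold change of 0.93. Among these were Tcf7 (2.25), a transcription factor of naive T cells, and the RNA-binding factor Zfp36l2 (1.61). In co-cultured T cells 2 of 20 rose and 0 fell against activated T cells, among them Zfp36l2 (1.34), and the median was 1.00. The shares of all genes called in these 2 comparisons were 6.54% and 10.3%, so that the count in co-culture was near this background. With a term for the sets 10 and 11 genes of the list rose and 0 fell, beside 26.0% and 30.9% of all genes.

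Of 12 genes of T-cell activation and the cell cycle, 6 fell in keratinocyte medium and 6 in co-culture, and 0 rose in either. In medium Il2ra, the α chain of the interleukin 2 receptor, fell by 3.29, the transcription factor Irf4 fell by 3.11, the transferrin receptor Tfrc fell by 2.90, and Egr2 fell by 2.56 on the log2 scale. In co-culture Tfrc fell by 3.96, Irf4 fell by 3.08, Myc fell by 2.87, and Il2ra fell by 2.80. The lower values of Slfn9 did not pass the test in these comparisons.

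Of the interferon list 1 of 33 genes tested rose in T cells in either comparison, Cmpk2 (2.13) in keratinocyte medium and Igtp (1.23) in co-culture, and 0 fell, which is below the 6.54% and 10.3% of all genes. DESeq2 called 13 and 14 of them as higher. With a term for the sets edgeR called 15 as higher and 1 as lower in medium and 16 as higher in co-culture. In the main fit the medians of the list were 0.91 and 1.09, against -0.01 over all genes, with 26 and 28 of the 33 genes positive. At an unadjusted p under 0.05 edgeR had 16 and 17 of these genes, beside 25.0% and 28.8% of all genes. Between both later T-cell groups 0 genes of any of the 3 lists were called by edgeR, with 2 genes of the 3 lists at an unadjusted p under 0.05, and 0 by DESeq2 and limma.

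In keratinocytes 32 of the 34 interferon genes tested had a positive log2 fold change in co-culture, with a median of 2.63, which lies above the 0.98 of Slfn2 and the 1.42 of Slfn8. None passed edgeR's threshold, 24 had an unadjusted p under 0.05, DESeq2 called 20 as higher, and limma called 0. The summed level of the list was 115 and 197 RPKM in keratinocytes alone and 993 and 1758 RPKM in co-culture. The difference of the co-culture effect between T cells and keratinocytes was called for 3 of 35 interferon genes, Gbp3 (-6.50), Xaf1 (-4.13), and Irf1 (-3.73), and for 0 of the 6 Schlafen genes. The quiescence list had a median of 0.16 in keratinocytes, with 0 genes called by edgeR, DESeq2, or limma and 1 at an unadjusted p under 0.05.

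Between the cell types, 5 of 20 quiescence genes tested were higher and 4 lower in activated T cells than in keratinocytes alone, beside 35.5% of all genes. Among them were Bach2 (4.77) and Ccr7 (4.76) on one side and the epithelial factor Klf4 (-7.16) on the other. Of 35 interferon genes tested 15 were higher and 2 lower in that comparison, led by Ifi44 (4.00) and Gbp2 (3.72). In the co-culture 3 of 35 were higher and 6 lower in T cells, beside 23.7% of all genes, so that this count was near the background. Among the lower ones were Ifi44 (-6.58), Oasl2 (-4.79), and Oas2, which had 0 reads in both T-cell libraries. Slfn2 had a positive value in both comparisons.

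Finally, the genes with the most similar course over the 10 libraries were sought among the 10745 genes whose mean was at least 1 RPKM. The measure was the root mean square difference of log2(RPKM + 1) after centring each gene on its own mean, and the libraries share depth, set, and T-cell content. Nearest to Slfn1 were Lime1 (0.11), an adaptor of lymphocyte receptor signalling, Ms4a6b (0.17), and Gimap4 (0.24), where Slfn1 itself varied by 1.69. Nearest to Slfn2 were Gimap5 (0.23), a GTPase gene of lymphocyte survival, Bcl2a1d (0.27), and Rilpl2 (0.29), at a variation of 1.31. Slfn3 was nearest to Isoc2a (0.26), Fam72a (0.27), and Cpsf4 (0.27), Slfn5 to Cx3cr1 (0.10), Tmx4 (0.15), and Galm (0.16), and Slfn8 to Agap2 (0.19), Nfatc2 (0.23), and Plxnc1 (0.25). The variation of Slfn5 was only 0.40, so that many low and even genes lie close to it. Slfn4 and Slfn9 had a mean under 1 RPKM and were not matched.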

How the data were processed

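Per the labels, poly(A) mRNA libraries were prepared with the NEBNext Ultra II kit. Per the paper, reads of 59 bases were sequenced from 1 end and mapped to GRCm38 with the CLC Genomics Workbench at its default options for RNA-Seq; the annotation release and the use of strand are not given in the sources used here. For every gene and library the authors deposited raw counts of exon reads, in total and for uniquely mapped reads. RPKM values were deposited too, written with a decimal comma, in which exon reads are scaled to exon length and mapped reads. Columns of other samples were not found. Groups came from the labels.

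Members and gene lists were chosen with earlier results of these data known. Total exon counts were fitted over all genes in R 4.3.3 (edgeR 4.0.16: filterByExpr and TMM, then glmQLFit and glmQLFTest) and adjusted after Benjamini and Hochberg, with an adjusted p under 0.05 as a call. The 4 keratinocyte libraries, the 6 T-cell libraries, all 10 libraries (comparisons between cell types), and 8 libraries (difference of the co-culture effects) were fitted apart. SE is the log2 fold change divided by the square root of F. Depth was 12864931 to 18019609 exon reads. A count of 0 allows up to 3 reads, a limit for counting error alone, as reads that lack molecular identifiers need not be independent molecules.

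As alternatives, unique reads, plain library sizes, no filter, a minimum of 10 counts in every library, DESeq2 1.42.0, limma 3.58.1 (log2 of RPKM with 1 or 0.1 added), other choices of libraries, leaving out 1 library at a time, and, for keratinocytes, the replicate number as a block were run. A term for the 2 sets of libraries in the other 6 comparisons was added after the data had been seen. The replicate numbers were taken as pairs, since the difference between replicates 2 and 1 correlated between keratinocytes alone and in co-culture across genes (r = 0.496) and the design text speaks of 2 parallel experiments. The fits were also run on simulated counts with known changes. These libraries were drawn independently and without the differences between the sets, so that they do not show how the fits behave on the real data. Named are the 7 members, up to 4 called genes per list and comparison with the largest change, and the 3 nearest genes to each member with a mean of 1 or more RPKM. Tables and plots were made in Python 3.11.15 (pandas 2.3.3, numpy 2.4.6, scipy 1.17.1, matplotlib 3.10.9). Promoter windows are from RefSeq and gene models from GENCODE vM21. Protein sequences were not used here. Some genes of the lists are not reported here by name.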

Additional observations from a re-analysis of the deposited data

How the results depend on the processing

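With DESeq2, limma on log2(RPKM + 1) and on log2(RPKM + 0.1), no filter, and the library set term, 3, 2, 3, 3, and 2 members were called in activated T cells against keratinocytes alone in place of 1, and 3, 2, 2, 3, and 2 in the co-culture partners in place of 0. In T cells against activated T cells the count fell from 1 to 0 with all 10 libraries in one fit (both comparisons) and with library size (co-culture). With 1 library left out, 0 to 1 members were called in either comparison with activated T cells, 0 to 3 in each comparison between cell types, and 0 in the other 3. The replicate block for keratinocytes changed no call of a member (0 with and without it). Of 665 member values under alternatives, 579 kept direction and side of the threshold.

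Directions that changed belonged to values that had passed no test, and the cause was not tested. Against activated T cells in co-culture, Slfn2 was -0.093 with limma at either pseudocount and -0.045 with library size, Slfn3 was 0.017 with unique reads, and Slfn5 was 0.054 with the library set term. Between co-culture partners Slfn5 was 0.022 with limma on log2(RPKM + 0.1) and 0.17 with the library set term, and the difference of the co-culture effects for Slfn3 was 0.38 with unique reads.

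With 1 library left out, changes of direction left these ranges of log2 values. In keratinocytes, Slfn1 ranged from -1.43 to 2.23, Slfn3 from -0.85 to 1.15, Slfn5 from -0.23 to 2.27, Slfn8 from -0.40 to 3.01, and Slfn9 from -2.24 to 0.16. In T cells in medium against activated T cells, Slfn2 ranged from -0.18 to 0.58, Slfn3 from -0.38 to 1.02, Slfn5 from -0.30 to 1.16, and Slfn8 from -0.32 to 0.78. In co-cultured against activated T cells, Slfn2 ranged from -0.30 to 0.48, Slfn3 from -0.59 to 0.81, Slfn5 from -0.60 to 0.86, and Slfn8 from -1.01 to 0.28. Between both later T-cell groups, Slfn2 ranged from -0.53 to 0.32, Slfn3 from -0.67 to 0.17, Slfn8 from -1.33 to 0.10, and Slfn9 from -1.05 to 1.16. In activated T cells against keratinocytes alone, Slfn5 ranged from -0.084 to 2.16, and Slfn9 from -0.16 to 0.86. Between the co-culture partners, Slfn5 ranged from -0.81 to 1.02, and Slfn9 from -1.59 to 0.78. For the difference of the effects, Slfn1 ranged from -2.66 to 1.04, Slfn3 from -5.86 to 5.29, and Slfn9 from -0.46 to 1.87.

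With 2 libraries a group the errors rest on few degrees of freedom, and Slfn3 in keratinocytes, Slfn4, and Slfn14 rest on a few reads. Slfn8 and Slfn9 share reads with near copies. The sets of libraries differed with exon length, and Slfn5 and Slfn9 have the longest exons of the family. Of these, only Slfn9 was lower in the second set in every group.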
